A study of Homo sapiens with 6 samples.

Results

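Collagen chain genes encode the alpha chains of the collagens, and their transcripts were followed here in Cal27 and Cal27-shGRK2 cells. Cal27 is a human tongue cancer line of squamous origin that is long established, and Cal27-shGRK2 is the same line with a short hairpin RNA against GRK2, a kinase that acts on active G protein-coupled receptors. A gene was taken as a collagen chain gene when its symbol was COL, a number, A and a number, with COL17A1 left out, and no level was required. This gave 23 of the 18678 genes of the table, in 4 classes: 3 chains of type VI, 6 of the basement membrane, 6 fibrillar and 8 other chains. Other collagen chain genes, COL3A1, COL4A3 and COL15A1 among them, had no entry under these symbols, so counts and sums leave them out. Both groups were grown under the same conditions, in DMEM with fetal bovine serum, and were harvested at 70% confluency for stranded mRNA sequencing. The labels do not say whether Cal27 carried a control vector, how many hairpins or clones stand behind Cal27-shGRK2, or whether libraries came from separate cultures. P-values therefore measure only the spread between these libraries, which may be technical.

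Replicates 0 and 1 of Cal27-shGRK2 did not differ in any of the 18678 genes, which is less than the sampling noise, so they count as 1 sample, called the shared library below. Tests run here thus set 2 Cal27-shGRK2 libraries against 3 from Cal27, unless a library is said to be left out or added. The authors' own comparison, cited below, need not rest on the same 2. Levels are FPKM, fragments scaled to transcript length and to the mapped fragments of the library, so they are per length and can be compared between genes. Depth per library is unknown, and the FPKM total of a library was 590163 to 644831. GRK2 (listed as ADRBK1), the targeted gene, was at 55.3, 59.4 and 55.8 FPKM in Cal27 and at 17.3 and 16.6 FPKM in Cal27-shGRK2, a 3.35-fold lower mean (log2 fold change -1.69 ± 0.06, SE, n = 3 and 2, limma adjusted p = 3.77e-11).

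Collagen alpha chains assemble as trimers, inside the cell, from like or unlike chains, and the trimers build fibrils, networks or filaments outside it. Types I, V, XI and XXVII form fibrils, type IV forms the sheet of basement membranes, type VII anchors epithelium to the tissue beneath, and type VI forms beaded microfilaments near basement membranes. In stratified squamous epithelium such as that of the tongue, the basal cells sit on a basement membrane and contribute type IV and type VII collagen to it, while fibroblasts make most fibrillar collagen. A trimer of unlike chains needs each of its chains, so the balance between partner chains is given below beside the levels.

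The genomic sequence just before the first annotated exon base is shown for 4 members whose levels differed between the groups, COL6A2 and COL13A1 (higher in Cal27-shGRK2) and COL4A5 and COL12A1 (lower). They were chosen after their values were seen. The RefSeq promoter table (GRCh38.p14) held an entry for 17 of the 23 members. It held none for COL6A1 and COL8A1, so these could not be shown. Capitals mark every match, on either strand, to 4 motifs: the CCAAT box (CCAAT), the GC box (GGGCGG), the TATA motif (TATAAA) and the AP-1 motif (TGANTCA).
COL6A2 (chr21:46097862-46098096, plus strand): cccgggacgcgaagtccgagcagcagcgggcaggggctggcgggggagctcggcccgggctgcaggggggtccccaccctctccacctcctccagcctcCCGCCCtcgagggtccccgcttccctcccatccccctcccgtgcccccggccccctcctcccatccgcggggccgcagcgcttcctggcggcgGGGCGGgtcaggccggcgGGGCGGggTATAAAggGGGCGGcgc
COL13A1 (chr10:69801656-69801866, plus strand): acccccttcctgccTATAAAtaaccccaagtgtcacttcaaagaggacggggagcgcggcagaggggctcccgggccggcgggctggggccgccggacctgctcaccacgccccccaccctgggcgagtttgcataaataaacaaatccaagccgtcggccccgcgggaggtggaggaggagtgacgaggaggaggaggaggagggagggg
COL4A5 (chrX:108439588-108439837, plus strand): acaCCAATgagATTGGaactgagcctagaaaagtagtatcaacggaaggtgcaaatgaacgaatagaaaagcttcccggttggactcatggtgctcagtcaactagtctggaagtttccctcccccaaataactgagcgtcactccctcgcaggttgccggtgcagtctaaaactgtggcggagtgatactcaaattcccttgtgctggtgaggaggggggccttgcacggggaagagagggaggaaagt
COL12A1 (chr6:75206054-75206303, minus strand): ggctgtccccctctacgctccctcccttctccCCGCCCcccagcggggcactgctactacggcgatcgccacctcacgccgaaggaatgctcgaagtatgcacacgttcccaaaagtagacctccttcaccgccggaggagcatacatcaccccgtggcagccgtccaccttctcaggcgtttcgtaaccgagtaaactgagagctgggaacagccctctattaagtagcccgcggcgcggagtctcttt

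The 235 bases of COL6A2 held 4 GC boxes and 1 TATA motif, and their GC content was 79.6%, against a median of 57.9% over 35116 RefSeq windows of that length. A GC box was present in 40.7% of those windows and a TATA motif in 10.5%. The 211 bases of COL13A1 held 1 TATA motif, present in 7.88% of windows of that length. The 250 bases of COL4A5 held 2 CCAAT boxes on opposite strands (32.0% of windows have at least 1), and the 250 bases of COL12A1 held 1 GC box (42.6% of windows). No match to the AP-1 motif was found in these 4 windows, and 5.67% to 6.57% of windows of the 3 lengths held one. A match is a description of the letters and not of a bound site.

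The 23 collagen chain genes with an entry ranged from 0.116 to 70.3 FPKM in these carcinoma cells, and none of them was listed at 0 in any library. The highest were COL4A2 and COL7A1 in Cal27 and COL6A1 and COL4A2 in Cal27-shGRK2. A gene was tested when its mean over the 5 libraries reached 1 FPKM, which 15 members did and 8 did not. With limma on log2(FPKM + 1), adjusted over all 13377 genes tested, 4 members rose in Cal27-shGRK2 (COL6A1, COL6A2, COL8A1 and COL18A1), 4 fell (COL4A5, COL12A1, COL16A1 and COL7A1) and 7 did not pass an adjusted p of 0.05. COL8A1 reached the filter only through its level in Cal27-shGRK2, and 7 of the 14 other tested members passed. Of all genes tested, 29.6% passed, 15.0% higher and 14.6% lower.

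The median log2 fold change of the tested members was 0.09, against -0.0054 over all genes tested, and the median of its size without sign was 0.24 against 0.137. Without COL8A1 these medians of the members were 0.06 and 0.233 (n = 14). On the log2(FPKM + 1) scale 3 called members, COL6A1, COL6A2 and COL8A1, differed at least 2-fold (2 of 14 without COL8A1), as did 2.51% of all genes tested. In 10 of the 15 tested members the groups' values were apart without overlap (9 of 14 without COL8A1), against 53.3% of all genes tested. A fit with no filter, in which 21.9% of 18678 genes passed, called 5 members higher and 3 lower. The authors' deposited table marked 9 members significant, 5 higher and 4 lower, against 15.4% of all 18678 genes, and 6 of these 9 also passed in limma. The other 3 of these 9 lay under the filter and were not tested, while COL7A1 and COL16A1 passed in limma only. The authors' condition value for Cal27-shGRK2 was not the mean of the 2 libraries used here. It was 37.97 FPKM for COL7A1, where that mean was 36.39, and 2.615 FPKM for COL8A1, where it was 2.806. Matches and mismatches between limma and the authors' calls are therefore not between tests of the same values. When libraries were rescaled to the same total (TPM), the split over all genes was 2850 higher and 1512 lower (65.3% of calls higher, against 50.7% for 2008 higher and 1949 lower as deposited). In that fit 5 members rose and 2 fell, COL4A5 and COL12A1.

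**Figure D1:**
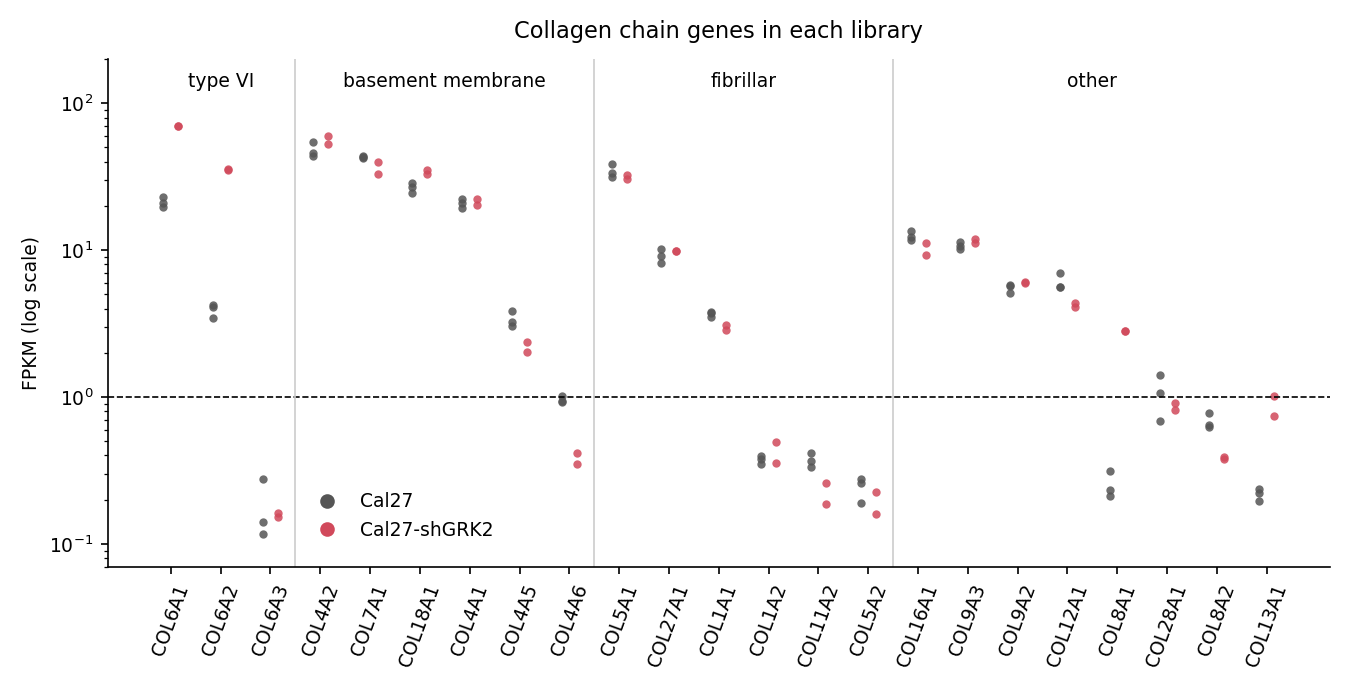
FPKM (log scale) of each of the 23 collagen chain genes in each library, 1 point per library, with 3 Cal27 libraries in grey and 2 Cal27-shGRK2 libraries in red, in 4 classes. The dashed line is 1 FPKM, the mean that a gene needed over the 5 libraries to be tested. COL6A1, COL6A2 and COL8A1 stand out with Cal27-shGRK2 points far above the Cal27 points, and COL6A3 stays under 0.3 FPKM in both groups.

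Of the type VI chains, COL6A1 and COL6A2 rose in Cal27-shGRK2 and the low COL6A3 lay under the filter. Both COL6A1 and COL6A2 encode short chains of the type VI trimer, which they form with the long chain of COL6A3 or of a related gene. COL6A2 (ENSG00000142173.14, chromosome 21 from 46098097 to 46132849, plus strand, hg38, GENCODE version 29) was at 4.09, 4.24 and 3.47 FPKM in the Cal27 libraries and at 35.4 and 35.7 FPKM in the Cal27-shGRK2 libraries. Both Cal27-shGRK2 values lay above all Cal27 values, and the means, 3.93 ± 0.407 (SD, n = 3) and 35.6 ± 0.230 FPKM (SD, n = 2), differed 9.05-fold. The log2 fold change was 2.89 ± 0.08 (SE, 95% interval 2.72 to 3.07, limma adjusted p = 1.33e-12). COL6A1 (ENSG00000142156.14, chromosome 21 from 45981737 to 46005050, plus strand) was at 19.6, 23.0 and 21.0 FPKM in Cal27 and at 70.0 and 70.3 FPKM in Cal27-shGRK2. The groups again did not overlap, and the mean rose 3.31-fold, from 21.2 ± 1.69 to 70.1 ± 0.215 FPKM (log2 fold change 1.68 ± 0.07, SE, 95% interval 1.53 to 1.83, limma adjusted p = 1.25e-10). Both calls held in all 15 alternative fits, with log2 fold changes of 1.63 to 1.76 for COL6A1 and 2.83 to 3.15 for COL6A2.

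COL6A3, the long chain, lies on chromosome 2 from 237324003 to 237414375 (minus strand), away from the other type VI genes. It was at 0.141, 0.277 and 0.116 FPKM in Cal27 and at 0.162 and 0.153 FPKM in Cal27-shGRK2, so the groups overlapped. In the fit with no filter its log2 fold change was -0.02 ± 0.09 (SE, 95% interval -0.22 to 0.17, limma adjusted p = 0.883). On the log2(FPKM + 1) scale changes of genes this low come out too small, so this interval does not bound the change in FPKM. FPKM of COL6A1 was 82.9 to 181 times that of COL6A3 in Cal27 but 431 and 460 times in Cal27-shGRK2. The other long chains of type VI, COL6A5 and COL6A6, had no entry under these symbols among the 18678 genes.

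Markers of other cell types were read beside these rises, since in bulk RNA more cells of a type and more RNA per cell cannot be told apart. Of 10 fibroblast markers 4 were in the table, and their summed FPKM was 34.4 to 37.2 in Cal27 and 25.9 to 26.2 in Cal27-shGRK2, nearly all of it FBLN1. Of the rest, LUM was at most 0.413 FPKM, PDGFRB was 0.182 ± 0.0993 and 0.608 ± 0.0131 FPKM, and MFAP5 was listed at 0 in 1 Cal27-shGRK2 library. Smooth muscle and pericyte markers (3 of 6 in the table) summed to 5.19 to 6.01 and 4.27 to 4.33 FPKM. The 1 endothelial marker of 6, CDH5, was 3.50 to 3.97 and 6.80 to 7.01 FPKM. The 2 blood markers of 6 summed to 1.47 to 2.24 FPKM in Cal27 and 4.25 to 4.83 FPKM in Cal27-shGRK2. Means of CD68 were 1.01 and 3.91 FPKM, and those of CD14 were 0.883 and 0.629 FPKM. The 1 chondrocyte marker of 5, MATN3, was at most 0.408 FPKM. All 10 markers of squamous epithelium, the labelled origin, were present, and their summed FPKM was 3370 to 3740 in Cal27 and 1560 to 1580 in Cal27-shGRK2. Of these, CDH1 and EPCAM rose and 8 fell, KRT5 and TP63 among them. The part of these differences in the collagen levels was not tested.

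**Figure D2:**
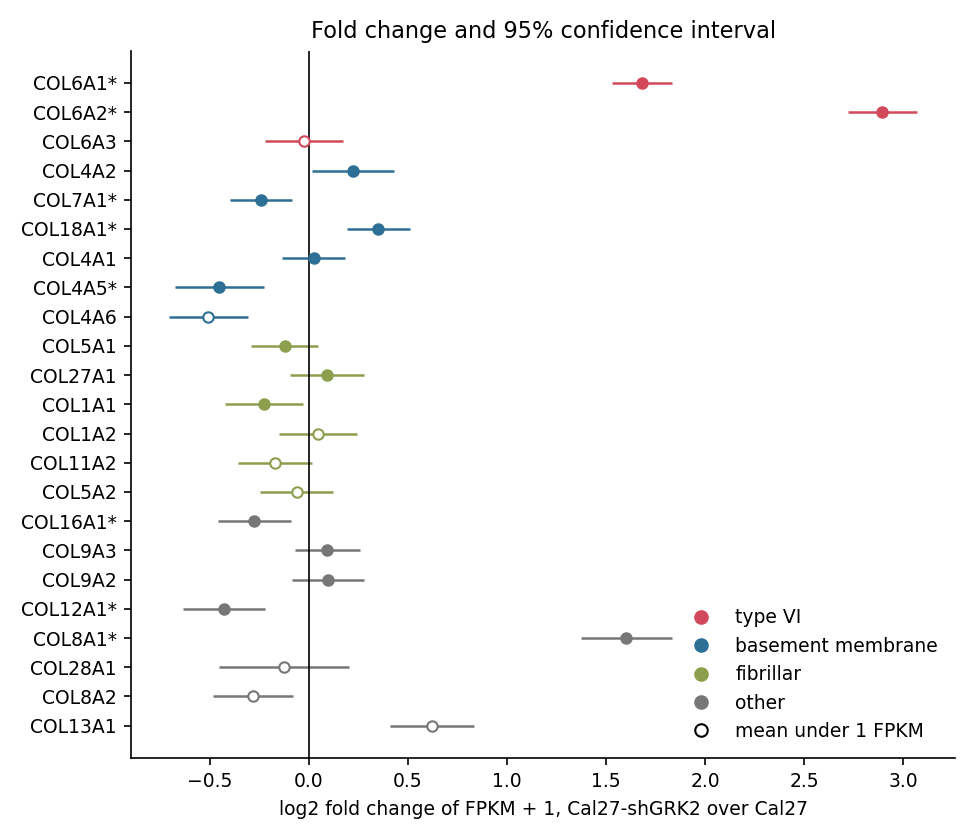
Log2 fold change of each collagen chain gene, Cal27-shGRK2 over Cal27, on the log2(FPKM + 1) scale with its 95% interval, from 3 and 2 libraries. Filled symbols are tested members, and an asterisk marks those with an adjusted p under 0.05. Open symbols are members under the filter, with values from the fit with no filter, and never carry an asterisk. Of these, COL4A6 and COL13A1 passed in the fit with no filter. COL6A2, COL6A1 and COL8A1 lie at 2.89, 1.68 and 1.60, while tested members that fell lie between -0.45 and -0.24.

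Among the 6 basement membrane chains, the abundant type IV pair COL4A1 and COL4A2 did not pass, the minor type IV chain COL4A5 and the anchoring-fibril chain COL7A1 fell, and COL18A1 rose. COL4A1 and COL4A2 encode the chains of the type IV network found in nearly all basement membranes. They lie head to head on chromosome 13, COL4A1 from 110148963 to 110307233 on the minus strand and COL4A2 from 110305812 to 110513209 on the plus strand, with RefSeq starts 126 bases apart. COL4A2 was at 43.7, 54.4 and 45.9 FPKM in Cal27 and at 59.5 and 52.6 FPKM in Cal27-shGRK2, with overlapping groups. Its log2 fold change of 0.22 ± 0.09 (SE, 95% interval 0.02 to 0.43) had a limma adjusted p = 0.101, and it passed in 5 of the 15 alternatives, with an adjusted p = 0.00455 without Cal27 replicate 1. COL4A1 was at 19.4, 22.3 and 21.1 FPKM and at 22.2 and 20.4 FPKM, a log2 difference of 0.03 ± 0.07 (SE, 95% interval -0.13 to 0.18, limma adjusted p = 0.833). The gene models of the pair overlap, and no source used here gives the strand setting of the counting, so reads at the overlap may be shared.

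COL4A5 and COL4A6 encode chains that join in a second type IV network of epithelial basement membranes, and they too lie head to head, on chromosome X, with RefSeq starts 379 bases apart. COL4A5 (from 108439844 to 108697545, plus strand) was at 3.05, 3.22 and 3.87 FPKM in Cal27 and at 2.04 and 2.35 FPKM in Cal27-shGRK2. Every Cal27 value was above both Cal27-shGRK2 values, a 1.54-fold lower mean (log2 fold change -0.45 ± 0.10, SE, 95% interval -0.68 to -0.23, limma adjusted p = 0.00427). Without the shared library the call was lost (adjusted p = 0.0715). COL4A6 (from 108155607 to 108439497, minus strand) lay under the filter, at 1.02, 0.930 and 0.938 FPKM in Cal27 and at 0.351 and 0.413 FPKM in Cal27-shGRK2, a 2.52-fold lower mean without overlap. The fit with no filter called it lower (log2 fold change -0.51, limma adjusted p = 0.00319), and the authors' deposited table gave a log2 fold change of -1.32 with q = 0.000612.

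COL7A1 (chromosome 3 from 48564073 to 48595267, minus strand) encodes the chain of the anchoring fibrils that hold squamous epithelium to its stroma. It was at 43.8, 42.3 and 43.0 FPKM in Cal27 and at 39.6 and 33.1 FPKM in Cal27-shGRK2. Replicate 2 of Cal27-shGRK2 was the lower, and the mean fell 1.18-fold (log2 fold change -0.24 ± 0.07, SE, 95% interval -0.40 to -0.08, limma adjusted p = 0.0228). This call was lost in 7 of 15 alternatives, with an adjusted p = 0.345 without replicate 2 of Cal27-shGRK2, and the authors' deposited table gave q = 0.848.

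COL18A1 (chromosome 21 from 45405137 to 45513720, plus strand) encodes the chain of type XVIII, a basement membrane collagen that carries heparan sulfate and releases endostatin. It was at 24.4, 28.8 and 26.8 FPKM in Cal27 and at 35.4 and 33.1 FPKM in Cal27-shGRK2, without overlap. Its mean rose 1.28-fold, from 26.7 ± 2.16 (SD, n = 3) to 34.2 ± 1.60 FPKM (SD, n = 2) (log2 fold change 0.35 ± 0.07, SE, 95% interval 0.19 to 0.51, limma adjusted p = 0.00203). Without the shared library the adjusted p was 0.0509, and its gene model overlaps that of SLC19A1 on the other strand, which also rose (log2 fold change 0.21, adjusted p = 0.0192).

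None of the 6 fibrillar chains passed in limma or was marked in the authors' deposited table, although 1 of the 3 tested had an unadjusted p under 0.05. COL5A1, a chain of type V, which helps to start fibrils and sets their width, was the highest, at 31.7, 38.4 and 33.7 FPKM in Cal27 and at 32.6 and 30.6 FPKM in Cal27-shGRK2. The ranges overlapped (log2 fold change -0.12 ± 0.08, SE, 95% interval -0.29 to 0.05, limma adjusted p = 0.273). COL27A1, a fibrillar chain known from cartilage, was at 8.21, 9.17 and 10.2 FPKM and at 9.81 and 9.83 FPKM (0.09 ± 0.09 on the log2 scale, SE, 95% interval -0.09 to 0.28, adjusted p = 0.472). COL1A1, the major chain of type I, was at 3.48, 3.73 and 3.80 FPKM in Cal27 and at 3.11 and 2.87 FPKM in Cal27-shGRK2. Both Cal27-shGRK2 values were below all Cal27 values, and the log2 fold change was -0.23 ± 0.09 (SE, 95% interval -0.42 to -0.03, limma adjusted p = 0.0777). It passed in 1 of the 14 alternatives in which it was tested, limma without trend (adjusted p = 0.0465). A further Cal27-shGRK2 library, computed as 3 times the condition value in the authors' deposited table less both columns, would hold COL1A1 at 4.06 FPKM, above every Cal27 library.

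COL1A2, COL5A2 and COL11A2, a second chain each of types I, V and XI, lay between 0.159 and 0.495 FPKM in every library. In the fit with no filter none of them passed (limma adjusted p = 0.743, 0.659 and 0.188), on a scale where changes of genes this low come out too small. COL11A2 was at 0.334 to 0.417 FPKM in Cal27 and at 0.258 and 0.186 FPKM in Cal27-shGRK2, without overlap, whereas the groups overlapped for COL1A2 and COL5A2. The computed Cal27-shGRK2 library would hold COL11A2 at 0.39 FPKM, inside the range of Cal27.

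Of the 8 other chains, COL8A1 rose, COL12A1 and COL16A1 fell, and both type IX chains did not pass. COL8A1 (chromosome 3 from 99638475 to 99799226, plus strand) encodes a short chain of type VIII, a network-forming collagen known from the vessel wall and from the basement membrane beneath the corneal endothelium. It was at 0.314, 0.234 and 0.213 FPKM in Cal27 and at 2.81 and 2.81 FPKM in Cal27-shGRK2, an 11.1-fold higher mean without overlap. On the log2(FPKM + 1) scale, where changes of low genes come out too small, the fold change was 1.60 ± 0.11 (SE, 95% interval 1.37 to 1.83, limma adjusted p = 2.61e-08). The authors' deposited table gave a log2 fold change of 3.37 with q = 0.000612, and the computed library held COL8A1 at 2.23 FPKM. Without either Cal27-shGRK2 library its mean fell under the filter, so it was not tested there.

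Its partner COL8A2 lay under the filter and was lower in both Cal27-shGRK2 libraries, at 0.623, 0.781 and 0.644 FPKM in Cal27 and at 0.380 and 0.389 FPKM in Cal27-shGRK2. The fit with no filter gave a log2 fold change of -0.28 (limma adjusted p = 0.0524), and the authors' deposited table -0.69 with q = 0.000612. COL13A1, a transmembrane collagen of cell adhesion sites, was at 0.236, 0.195 and 0.222 FPKM in Cal27 and at 1.01 and 0.747 FPKM in Cal27-shGRK2, a 4.03-fold higher mean without overlap. It was called higher with no filter (log2 fold change 0.62, limma adjusted p = 0.00135), and the authors' deposited table gave 1.95 with q = 0.000612. COL28A1, a chain with von Willebrand factor A domains like those of type VI, was at 0.684, 1.42 and 1.06 FPKM and at 0.816 and 0.912 FPKM, with overlapping groups (no filter, limma adjusted p = 0.592).

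COL12A1 and COL16A1 encode chains of collagens that sit on the surface of fibrils and have interrupted helices. COL12A1 (chromosome 6 from 75084326 to 75206051, minus strand) was at 5.59, 6.99 and 5.64 FPKM in Cal27 and at 4.12 and 4.36 FPKM in Cal27-shGRK2, a 1.43-fold lower mean without overlap. Its log2 fold change was -0.43 ± 0.10 (SE, 95% interval -0.64 to -0.22, limma adjusted p = 0.00365), and the adjusted p was 0.0554 without the shared library. COL16A1 was at 11.7, 12.3 and 13.5 FPKM and at 11.1 and 9.26 FPKM, again without overlap. Its log2 fold change was -0.27 ± 0.09 (SE, 95% interval -0.46 to -0.09, limma adjusted p = 0.0275), while the authors' deposited table gave q = 0.641. The call was lost in 7 of 15 alternatives, with an adjusted p = 0.327 without replicate 2 of Cal27-shGRK2, 0.0521 without Cal27 replicate 1 and 0.0957 without Cal27 replicate 2. Each of the 4 members that fell thus lost its call when 1 of the Cal27-shGRK2 libraries was left out, as did COL18A1 among those that rose. In these fits the log2 fold change was -0.38 for COL4A5, -0.39 for COL12A1 and 0.31 for COL18A1, but -0.11 for COL7A1 and -0.16 for COL16A1. Type IX collagen decorates cartilage fibrils. Its chain gene COL9A3 was at 10.7, 11.3 and 10.2 FPKM in Cal27 and at 11.1 and 12.0 FPKM in Cal27-shGRK2, which overlapped. COL9A2 was at 5.83, 5.12 and 5.66 FPKM and at 6.02 and 5.95 FPKM, without overlap. Neither passed (limma adjusted p = 0.388 and 0.427).

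Partner chains of 1 trimer were then compared inside each library, where library scaling cancels. In Cal27, COL6A1 stood at 4.80, 5.42 and 6.05 times the FPKM of COL6A2, and in Cal27-shGRK2 at 1.98 and 1.97 times. The ratio was lower in both Cal27-shGRK2 libraries than in any Cal27 library, by 1.45 on the log2 scale (2.43 ± 0.165, SD, n = 3, and 0.979 ± 0.00488, SD, n = 2). A two-sided exact permutation test of this difference gave p = 0.1, the lowest that 3 against 2 libraries allow, and p = 0.3 adjusted over the 3 pairs tested. COL4A2 stood at 2.26, 2.44 and 2.17 times COL4A1 in Cal27 and at 2.69 and 2.57 times in Cal27-shGRK2 (exact permutation p = 0.2, adjusted 0.3). The log2 ratio of COL9A2 over COL9A3 was -0.96 ± 0.160 and -0.948 ± 0.0859 (SD, exact permutation p = 1.0), a difference of 0.012 that changed sign without Cal27 replicate 1 (-0.0802) or the shared library (-0.0487).

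Pairs with a chain under the filter were not tested, and their ratios rest on low values. COL8A1 was at 0.504, 0.300 and 0.331 times COL8A2 in Cal27 and at 7.38 and 7.22 times in Cal27-shGRK2, so that the more abundant type VIII chain was COL8A2 in every Cal27 library and COL8A1 in both Cal27-shGRK2 libraries. COL4A5 was at 2.98, 3.46 and 4.12 times COL4A6 in Cal27 and at 5.83 and 5.67 times in Cal27-shGRK2. COL1A1 was at 9.50 to 10.0 times COL1A2 in Cal27 and at 8.81 and 5.80 times in Cal27-shGRK2, and COL5A1 at 122 to 177 times and 145 and 192 times COL5A2. In trimers of types I and V the A1 chain is the major one, and in these cells the A2 chains of both were under 0.5 FPKM.

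**Figure D3:**
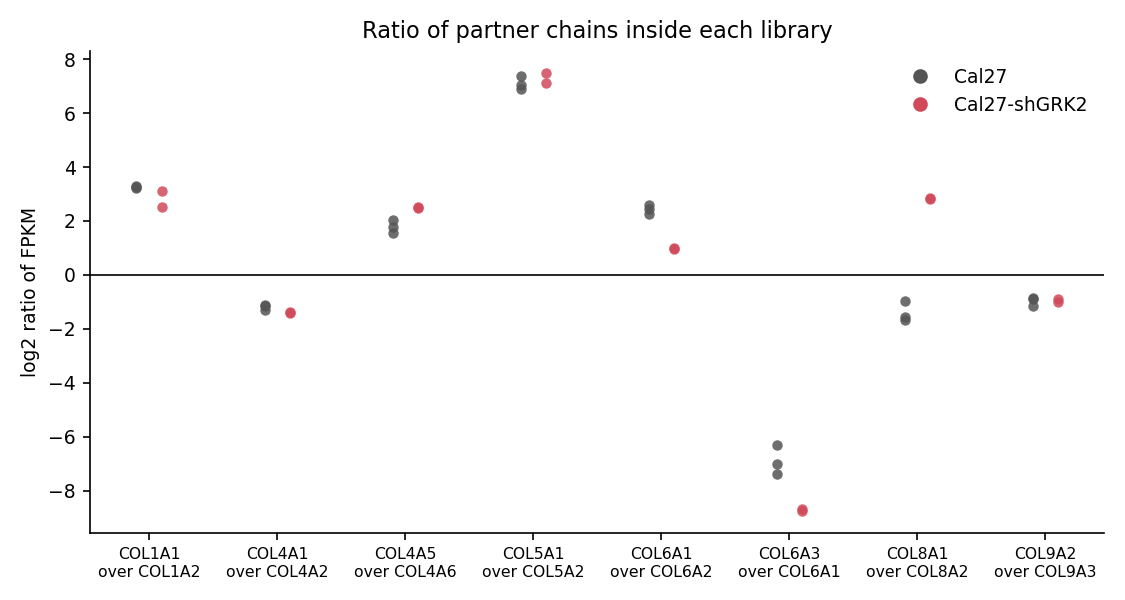
Log2 ratio of FPKM between partner chains inside each library, 1 point per library, for 3 Cal27 libraries (grey) and 2 Cal27-shGRK2 libraries (red). The group means of COL6A1 over COL6A2 are 2.43 in Cal27 and 0.979 in Cal27-shGRK2, and COL8A1 over COL8A2 lies below 0 in Cal27 and above 0 in Cal27-shGRK2.

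Summed over all 23 genes, collagen chain FPKM was 254 ± 15.6 in Cal27 (SD, n = 3) and 339 ± 13.9 in Cal27-shGRK2 (SD, n = 2). Per library the sums were 239, 270.1 and 252 FPKM and 348 and 329 FPKM, without overlap. With type VI left out they were 228 ± 13.7 and 233 ± 14.3 FPKM and overlapped. Type VI was 9.98%, 10.2% and 9.76% of collagen chain FPKM in Cal27 but 30.3% and 32.3% in Cal27-shGRK2. Basement membrane chains summed to 143 ± 8.37 and 150.5 ± 12.1 FPKM, fibrillar chains to 48.4 ± 4.04 and 45.3 ± 1.60 FPKM, and the other chains to 37.1 ± 1.34 and 36.9 ± 0.672 FPKM. As shares of collagen chain FPKM these 3 classes were at 56.3% and 44.4%, at 19.1% and 13.4%, and at 14.6% and 10.9%. These sums have no test beyond the spread between libraries.

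**Figure D4:**
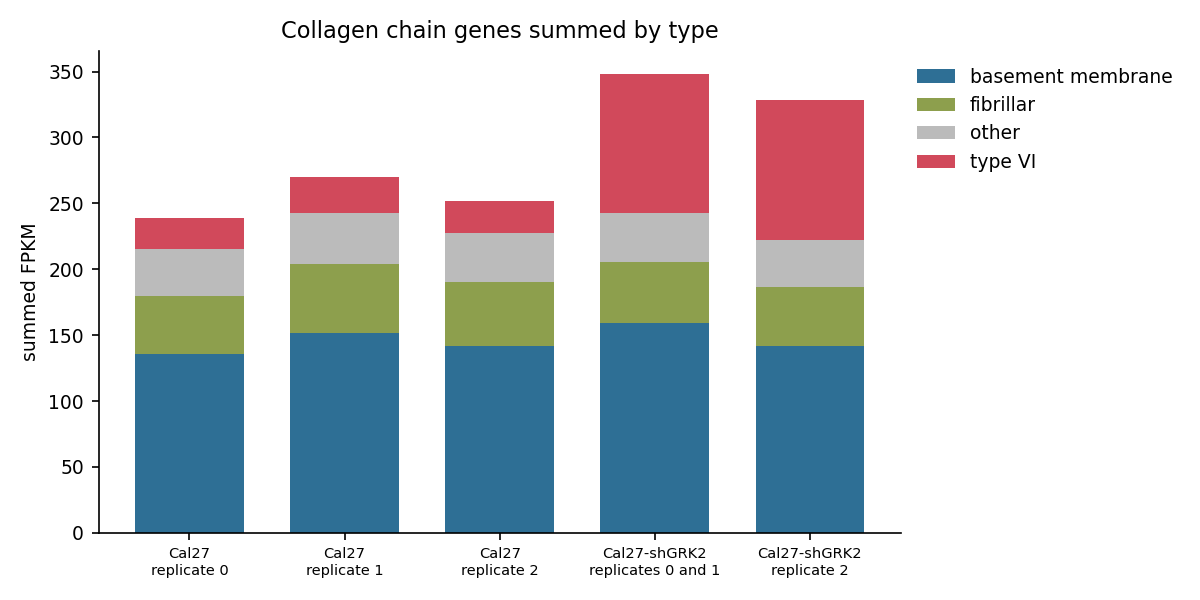
Summed FPKM of the collagen chain genes in each library, stacked by class from 0. The type VI block holds 23.9 to 27.5 FPKM in the Cal27 libraries and 106 FPKM in both Cal27-shGRK2 libraries, while the blocks of the other 3 classes together span 215 to 243 and 223 to 243 FPKM.

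The genes that modify, export, trim, cross-link, bind and cut collagen were counted by role. Of 58 such genes listed 48 were in the table and 38 were tested, of which 14 rose, 7 fell and 17 did not pass (median log2 fold change 0.03). The called share was 55.3%, against 29.6% of all genes tested (15.0% higher, 14.6% lower). MMP1, MMP2 and MMP13 reached the filter only through the group in which they are high, and without them 13 of 35 rose and 5 fell. Among the receptors 4 of 5 tested rose and 1 fell, where 15.0% of all genes tested rose. ANTXR2, an anthrax toxin receptor that binds type VI and type IV collagen, was at 3.65, 3.13 and 2.70 FPKM in Cal27 and at 6.82 and 7.47 FPKM in Cal27-shGRK2 (log2 fold change 0.97 ± 0.10, SE, limma adjusted p = 3.2e-06). Its relative ANTXR1, also a collagen receptor, rose by 0.40 on the log2 scale (adjusted p = 0.00093), and ITGA2, the alpha subunit of a collagen-binding integrin, by 0.49 (adjusted p = 0.00038). DDR1, a receptor tyrosine kinase that collagen activates, fell from 106 ± 4.19 to 88.7 ± 1.87 FPKM (log2 fold change -0.25, adjusted p = 0.00569), a call lost without Cal27-shGRK2 replicate 2 (adjusted p = 0.0633).

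Of 8 tested genes of propeptide cleavage and cross-linking, 3 rose, none fell in limma and 5 did not pass, with 2 lower at an unadjusted p under 0.05. The called share of 37.5% was near the 29.6% of all genes tested. LOX and LOXL2 encode enzymes that oxidise lysines of collagen for cross-linking. LOX was at 1.30, 1.36 and 1.24 FPKM in Cal27 and at 3.42 and 3.34 FPKM in Cal27-shGRK2 (log2 fold change 0.93 ± 0.10, SE, limma adjusted p = 2.97e-06). LOXL2 rose from 47.3 ± 3.65 to 77.0 ± 0.954 FPKM (0.69 ± 0.07, SE, adjusted p = 1.69e-06). SPARC, a secreted protein that binds collagen, rose from 609.5 ± 30.2 to 902 ± 36.1 FPKM (0.57 ± 0.06, SE, adjusted p = 5.17e-06).

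The enzymes that hydroxylate and glycosylate collagen chains and their partners were mixed, with 4 of 12 higher, 3 lower and 5 not passing (58.3% called, against 29.6% of all genes tested). P4HA2, a catalytic subunit of prolyl 4-hydroxylase, rose from 19.6 to 36.4 FPKM (log2 fold change 0.86, limma adjusted p = 8.83e-08), while P4HA1, the alternative subunit, fell by 0.26 on the log2 scale (adjusted p = 0.0474). PLOD2, a lysyl hydroxylase that acts on the ends of collagen chains, rose by 0.39 (adjusted p = 2.63e-04), and PLOD3 by 0.19 (adjusted p = 0.0425). P3H2, a prolyl 3-hydroxylase, fell by 0.22 (adjusted p = 0.025) and PPIB, a prolyl isomerase of the endoplasmic reticulum, by 0.17 (adjusted p = 0.0457). Calls of PLOD3, P4HA1, P3H2 and PPIB were lost in 6 to 10 of 15 alternatives.

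Of 9 tested genes of chaperoning and export 2 rose, 1 fell and 6 did not pass, a called share of 33.3% that was near the 29.6% of all genes tested. SERPINH1, the collagen-specific chaperone HSP47, was at 109, 121 and 112 FPKM in Cal27 and at 90.4 and 87.9 FPKM in Cal27-shGRK2 (log2 fold change -0.35 ± 0.06, SE, limma adjusted p = 5.94e-04). MIA3, which loads large cargo such as type VII collagen into transport vesicles, rose by 0.25 (adjusted p = 0.0165), and SEC23A, a coat subunit of those vesicles, by 0.20 (adjusted p = 0.0331). The call of MIA3 was lost in 2 of 15 alternatives, without the shared library (adjusted p = 0.0908) and without replicate 2 of Cal27-shGRK2 (0.0871). That of SEC23A was lost in 7 of 15, these among them (0.0588 and 0.24), and also without Cal27 replicate 2 (0.0759).

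Of 4 tested collagenases and gelatinases MMP2 rose, MMP1 and MMP13 fell and MMP14 did not pass. Since these 3 called genes passed the filter only through 1 group, their count supports nothing about the role. MMP13, a collagenase that cuts fibrillar collagen, was at 14.0, 13.5 and 15.5 FPKM in Cal27 and at 0.421 and 0.600 FPKM in Cal27-shGRK2, a 28.1-fold lower mean (log2 fold change -3.35 ± 0.09, SE, limma adjusted p = 9.89e-13). MMP1, interstitial collagenase, was at 2.62, 2.73 and 3.07 FPKM and at 0.115 and 0.148 FPKM, 21.3-fold lower (log2 fold change -1.75 ± 0.11, SE, adjusted p = 7.99e-09). MMP2, a gelatinase that also cuts type IV collagen, rose from 0.886 ± 0.178 to 2.57 ± 0.0362 FPKM (log2 fold change 0.93 ± 0.11, SE, adjusted p = 1.31e-05). MMP14, the membrane collagenase that activates MMP2, was at 31.4 ± 1.56 and 34.3 ± 0.169 FPKM and did not pass (adjusted p = 0.171).

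**Figure D5:**
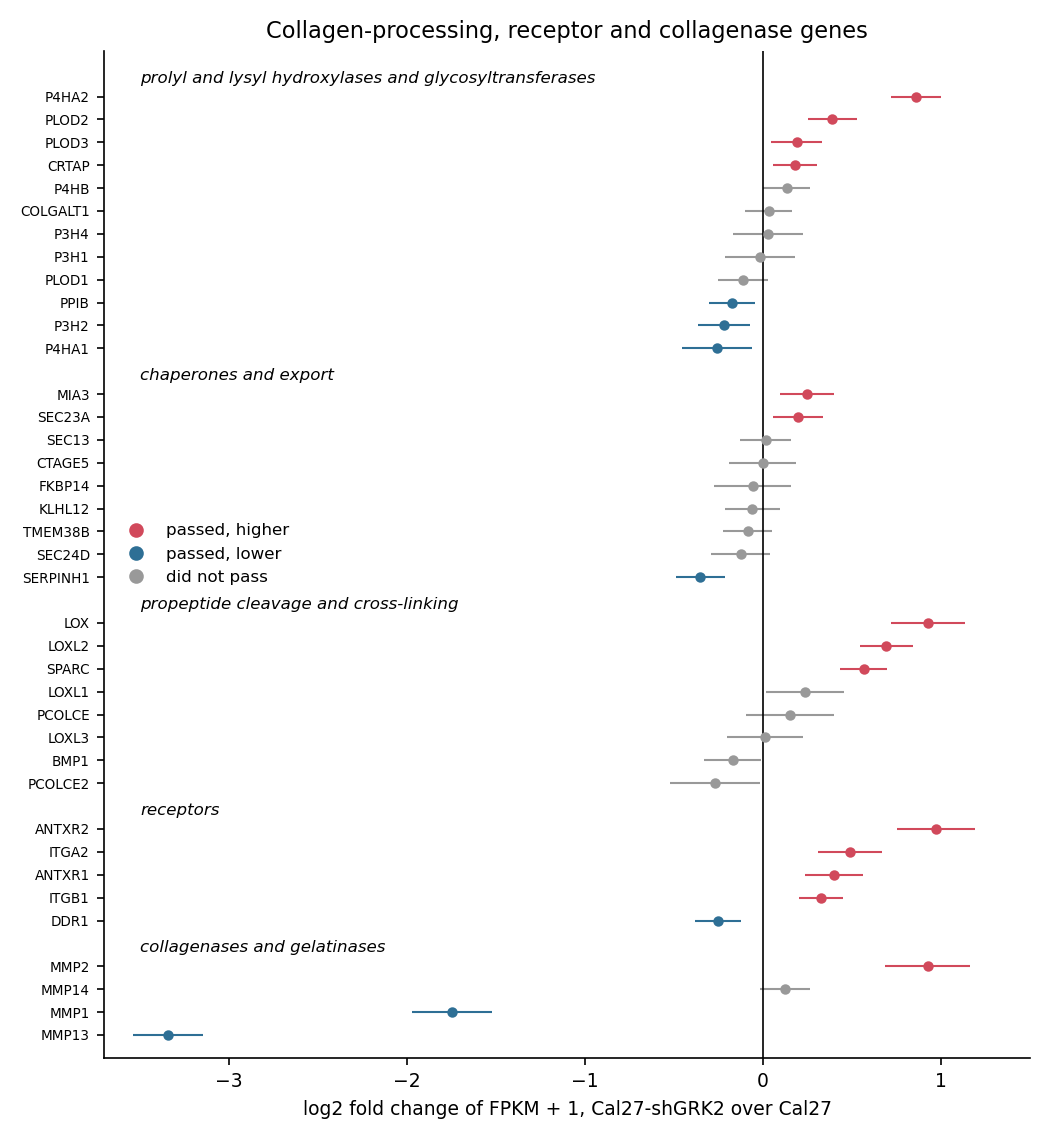
Log2 fold change, Cal27-shGRK2 over Cal27 on the log2(FPKM + 1) scale, of the tested collagen pathway genes, grouped by role, from 3 and 2 libraries, with lines for the 95% interval, red and blue for genes that passed higher and lower and grey for those that did not. MMP13 and MMP1 are the farthest below 0, at -3.35 and -1.75, and ANTXR2, LOX and MMP2 the farthest above it, at 0.93 to 0.97.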

How the data were processed

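Per the submitters' processing notes, the tools for these stranded mRNA libraries were Cuffdiff 2.2.1, TopHat2 2.1.0 and Bowtie2 2.2.6, with hg38. Neither annotation nor strand setting of the counting was given in the sources used here. As deposited, the file gives FPKM per library and per condition, and the authors' log2 fold change, test statistic (a score), p-values and q-values, per the file headers. Values of 0.0001 in these columns stand for 0. Overlapping genes can exchange signal, and depth is unknown.

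Replicates 0 and 1 of Cal27-shGRK2, identical in all 18678 genes (other pairs within a group in 55 to 94), were counted once. The 13377 genes whose mean over 5 libraries reached 1 FPKM were fitted with limma 3.58.1 on log2(FPKM + 1) in R 4.3.3 (trend and robust, 3 residual degrees of freedom), two-sided, adjusted over all of them by Benjamini-Hochberg, with a threshold of 0.05. The script was tested on simulated data. Members under the filter were read from the fit with no filter and from the authors' table. Log2 ratios of partner chains used a pseudocount of 0.01 and an exact permutation test, and ratios printed as multiples are of FPKM as deposited. Gene positions are from GENCODE version 29, which held all 23 members, and promoter windows from RefSeq.

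All 23 members are named. Values in every library are given for those that reached this mean, and per pathway role up to 3 called genes per direction with the largest change are named. Members, lists and rules were chosen with earlier results of these data known. Alternatives were a pseudocount of 0.1, no filter, a mean of at least 5 FPKM, 3 scalings, plain limma (no trend, not robust), a replicate block, a Cal27-shGRK2 library computed from the authors' condition value, and leaving out each library.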

Additional observations from a re-analysis of the deposited data

How the results depend on the processing

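Of fold changes refitted under the alternatives, 60 lost their call, 6 gained one and 450 stayed on their side of the threshold. Among the latter, COL4A1 changed sign 3 times without passing (-0.0308 to -0.027 on the log2 scale). Of the log2 ratios 2 changed sign and 19 did not, and of the counts of genes 12 moved by over 1.5 times and 93 did not. The rises of COL6A1 and COL6A2 passed in all 15 alternative fits. That of COL8A1 passed in all 12 in which it was tested. It was under the filter at a mean of at least 5 FPKM and without either Cal27-shGRK2 library. Other called members lost their calls in fits without a Cal27-shGRK2 library, so 12 of 12 is a weaker check than 15 of 15. Leaving out 1 library at a time gave 2600 to 4028 genes past the threshold (1218 to 2205 higher, 1088 to 1843 lower), 2 to 5 collagen chain genes higher and 2 to 4 lower, and 4 to 6 pathway genes lower. Collagen chain genes higher numbered 2 without the shared library, in which case COL8A1 was not tested. With rescaling to a common total of 1000000 (TPM), 5 collagen chain genes were higher and 2 lower, and 4 pathway genes were lower. With limma without trend, 4 pathway genes were lower. The log2 ratio of COL9A2 over COL9A3 moved between -0.0802 and 0.0727 over these left-out libraries, and was -0.0487 without the shared library. No scaling moved the median of all genes by more than 0.052 on the log2 scale. Same-numbered libraries correlated at 0.0801 (number 0) and 0.0167 (number 2) in their deviations, and Cal27 replicate 1 at -0.0714 with the shared library. Deviations of the 2 Cal27-shGRK2 libraries from their mean are mirror images, so these values are not separate checks and cannot decide pairing. Labels do not state that the numbers pair libraries, so the numbers were not taken as pairing. A replicate block called 3960 genes (5 collagen chain genes higher, 3 lower) with the shared library as number 0, and 3481 genes (4 higher, 4 lower, and 4 pathway genes lower) as number 1. With the block and number 0, COL4A2 passed (adjusted p = 0.0116) and COL16A1 did not (adjusted p = 0.104). The cause of these changes was not tested. With unknown depth, no counting interval could be set on members under 1 FPKM.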

Other observations

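COL6A1, COL6A2 and COL18A1 lie close together near the end of the long arm of chromosome 21, with 93047 bases between COL6A1 and COL6A2 and 468017 bases between COL18A1 and COL6A1. Genes within 500000 bases of COL6A1 or COL6A2 were read after the collagen values were seen. There were 17 such genes, COL6A1 and COL6A2 themselves among them. Of the 17, 12 were tested, 3 of them collagen chains, all higher in Cal27-shGRK2. For COL6A1 and COL6A2 this follows from the choice of the window, which was set around them. Of the other 9, SLC19A1, a folate transporter whose gene model overlaps COL18A1, rose from 38.3 ± 1.05 to 44.3 ± 0.243 FPKM (log2 fold change 0.21 ± 0.06, SE, limma adjusted p = 0.0192). The other 8 did not pass, LSS, MCM3AP, PCNT and DIP2A among them, with log2 fold changes of -0.07 to 0.11. Of all genes tested, 29.6% passed.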
